A study of Mus musculus with 6 samples.

Results

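The genes described here are 10 genes of STAT3 signaling, chosen by symbol from the 17469 genes of the count table. They are the cytokines Il6, Il10, Csf3, Lif and Osm, the receptor subunits Il6ra, Il6st and Il10ra, the transcription factor Stat3 and its feedback inhibitor Socs3. The table covered OB progenitors from cultured BMSCs, the bone marrow cells that attach to a dish, of 6-month-old mice, with 3 control libraries (OCN-Cre;Ai9) and 3 TgAPPsweOCN;Ai9 libraries (TgAPPswe;Ocn-Cre;Ai9). Mice of both genotypes carried OCN-Cre, which places Cre under the osteocalcin promoter, and the Ai9 reporter, which turns on tdTomato wherever Cre has acted. The TgAPPsweOCN;Ai9 mice also carried the LSL-hAPPswe transgene, in which the CAG promoter drives human APP with the Swedish mutation after Cre has removed a stop cassette. The tdTomato+ cells were sorted before RNA was extracted. According to the study, OCN-Cre is also active in some neurons outside bone. The labels do not say whether the 3 libraries of a genotype came from separate mice or cultures, so p-values measure only the spread between these libraries, which may be technical.

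Cytokines of the IL-6 family bind a receptor chain of their own and then engage gp130, the shared signaling chain encoded by Il6st. IL-10 and G-CSF (Csf3) use other receptors, and all of these receptors activate JAK kinases that phosphorylate STAT3. Phosphorylated STAT3 enters the nucleus and induces genes such as Socs3, whose protein binds gp130 and the G-CSF receptor and shuts the signal down, while IL-10 receptors escape it. In bone marrow, IL-6, oncostatin M (Osm) and LIF act on osteoblasts and osteoclasts, G-CSF drives the formation of neutrophils, and IL-10 restrains macrophages. RNA levels do not show whether STAT3 was phosphorylated.

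Promoter sequences are shown for Il6, a ligand almost silent in control libraries, for Lif, the ligand that differed least, and around a STAT motif of Socs3. They come from RefSeq (GRCm38.p6), whose promoter table held 6 of the 10 genes, and each strand of the 250 bases before the start was searched for 5 motifs. Capitals mark the matches. The Il6 window lies on the plus strand at chr5:30012864-30013113, and holds, from 5′ to 3′, an AP-1 motif (TGANTCA), a C/EBP motif (TTGCNNAA on the minus strand) and an NF-kB motif (GGNNTTTCC).
Il6: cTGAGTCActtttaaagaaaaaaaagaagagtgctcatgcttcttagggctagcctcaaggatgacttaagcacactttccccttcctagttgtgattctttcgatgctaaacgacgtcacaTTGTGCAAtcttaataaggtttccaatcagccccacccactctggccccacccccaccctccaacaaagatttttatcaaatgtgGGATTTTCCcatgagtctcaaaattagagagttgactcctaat
The Lif window lies on the plus strand at chr11:4257318-4257567 and holds an AP-1 motif, with its last 11 bases inside the transcript annotated by GENCODE.
Lif: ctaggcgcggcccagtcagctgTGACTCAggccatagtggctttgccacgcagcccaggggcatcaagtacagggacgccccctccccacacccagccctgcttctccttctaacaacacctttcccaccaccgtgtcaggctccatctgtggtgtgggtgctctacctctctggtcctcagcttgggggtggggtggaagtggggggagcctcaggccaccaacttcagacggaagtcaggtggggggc
The Socs3 site lies on the minus strand at chr11:117969502-117969530 and carries the STAT motif TTCNNNGAA, 154 to 146 bases before the RefSeq start.
Socs3: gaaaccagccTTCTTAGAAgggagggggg
The RefSeq start of Socs3 lies 180 bases upstream of the nearest coding transcript start in GENCODE, and the site shown lies within the span that GENCODE gives the gene. Unlike in the other windows, the bases just after this start were not found in a GENCODE transcript of the gene. The letters of the STAT motif were not in the Il6, Lif, Stat3, Il6ra or Il6st windows, and TATAAA was in none of the 6. The NF-kB motif of Il6 ended 35 bases before the start. Of the 32851 mouse promoter windows of this length, 7.02% held the STAT motif, 4.93% the NF-kB motif, 6.75% the AP-1 motif, 9.56% the C/EBP motif and 12.4% TATAAA, so each match is a description of letters and not of a bound site.

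Libraries held 19340813 to 22037848 estimated counts, and a level of 3 counts, taken as the smallest detectable, was 0.136 to 0.155 CPM (counts relative to the total of the library). This floor and the counting intervals given below cover counting error alone. Counts were compared with edgeR's quasi-likelihood test over the 12701 genes with enough counts. A gene was counted as up- or down-regulated when its p, adjusted by the Benjamini-Hochberg method, did not exceed 0.05 and its log2 fold change was 1 or more in size. Levels are given as FPKM, which scales fragments by gene length and by library total, and fold changes come from counts normalized by the TMM method. TMM factors were 1.07 to 1.08 in control and 0.91 to 0.94 in TgAPPsweOCN libraries. Scaling by library total alone moved the median over all tested genes from -0.02 to -0.23 on the log2 scale, and FPKM ratios carry this shift. The sort label was checked against markers. Of the osteoblast-lineage markers, Col1a1 lay at 45.5 ± 0.228 FPKM in control and 34.9 ± 7.37 in TgAPPsweOCN libraries (SD, n = 3), Runx2 at 1.95 ± 0.289 and 1.47 ± 0.175, Sp7 at 1.36 ± 0.140 and 0.687 ± 0.0924, and Bglap, osteocalcin itself, at 0.857 ± 0.461 and 0.273 ± 0.250, with overlapping ranges and too few counts for the test. The second osteocalcin gene, Bglap2, lay at 1.03 ± 0.980 and 1.72 ± 0.521 FPKM, also overlapping, and the estimated counts of both held fractions, so neither value is certain. Alpl, alkaline phosphatase, lay at 3.07 ± 0.0300 and 3.92 ± 0.280 FPKM (log2 fold change 0.57 ± 0.105, SE; edgeR adjusted p = 0.00139). Although the study names these cells OB progenitors, the median myeloid marker was far more abundant than the median stromal or osteoblast marker. It lay at 547 to 573 FPKM against 1.74 to 2.03 in control and 491 to 530 against 1.90 to 2.84 in TgAPPsweOCN libraries. The 15 myeloid markers summed to 19559 to 20311 FPKM in control and 16352 to 20099 in TgAPPsweOCN libraries, and among them Ptprc lay at 93.9 ± 3.22 and 124 ± 3.30, Itgam at 243 ± 20.1 and 502 ± 9.93, and Csf1r at 1214 ± 22.1 and 370 ± 30.9. Lyz2 alone held a large part of these sums. Of these 15 markers 4 were up-regulated and 4 down-regulated (26.7% each, beside 8.90% and 9.20% of all tested genes). The sums over the 18 stromal and osteoblast markers were 1130 to 1219 and 647 to 911 FPKM, mostly from Spp1. Of the 17 tested with edgeR, Lum and Dcn were up-regulated and 0 down-regulated. Lum, with 0, 1 and 0 control counts, passed the filter on low counts only through the TgAPPsweOCN libraries. Its log2 fold change ran from 0.80 to 8.10 over the alternative settings. At an adjusted p of 0.05 alone 3 were higher, Lum, Dcn and Alpl, and 4 lower (17.6% and 23.5%, beside 32.5% and 31.5% of all tested genes). Those lower were Sp7, Spp1, Pdgfrb and Sparc, with log2 fold changes of -0.78, -0.54, -0.55 and -0.39. In all, 8 of the 17 had a positive log2 fold change. The 11 neutrophil markers summed to 54.4 to 108 FPKM in control and 70.7 to 96.9 in TgAPPsweOCN libraries, with Csf3r the largest part. Of the 9 tested with edgeR, Camp was up-regulated (11.1%, beside 8.90% of all tested genes) and 0 were down-regulated (beside 9.20%), and 5 had a positive log2 fold change. Camp, with 9, 1 and 4 control counts, passed the filter on low counts only through the TgAPPsweOCN libraries. Ly6g and Retnlg lay at or near 0. The 9 T, B and NK markers summed to 3.80 to 4.66 and 1.06 to 2.56 FPKM, mostly from Cd4, which was down-regulated, with Cd3e and Nkg7 near 0. Most of the 10 genes described here are used by both myeloid and stromal cells, and the part of marker differences in their values was not tested. In such bulk libraries fewer cells of a type and less RNA per cell cannot be told apart.

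All 10 genes passed the filter on low counts, and their estimated counts were whole numbers in every library. In TgAPPsweOCN libraries Il6, Csf3, Il10 and Socs3 were up-regulated and Osm was down-regulated, so 5 of 10 were called where 18.1% of all tested genes were. Il6 and Csf3 passed the filter only through the TgAPPsweOCN libraries, where they were high, and requiring at least 10 counts in every library left 2 up-regulated genes, Il10 and Socs3, so the count is a description of the 10 genes. The 4 up-regulated genes stand against 8.90% of all genes, and the 1 down-regulated gene against 9.20%. Over all genes these shares are 1130 up- and 1169 down-regulated genes, which became 846 and 1732 when scaled by library total alone, with the counts among the 10 genes still 4 and 1. Lif and Stat3 were higher and the 3 receptor genes lower, all short of the fold change threshold. At the adjusted p alone, edgeR called all 10 genes, 6 higher and 4 lower, where it called 64.0% of all genes, 32.5% of them higher and 31.5% lower, so a call by p alone sets these genes little apart. FPKM ranges of the genotypes did not overlap for 9 of the 10 genes, against 72.3% of all tested genes. With 3 libraries a genotype, an exact two-sided permutation test of a single gene cannot go below p = 0.1.

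**Figure D1:**
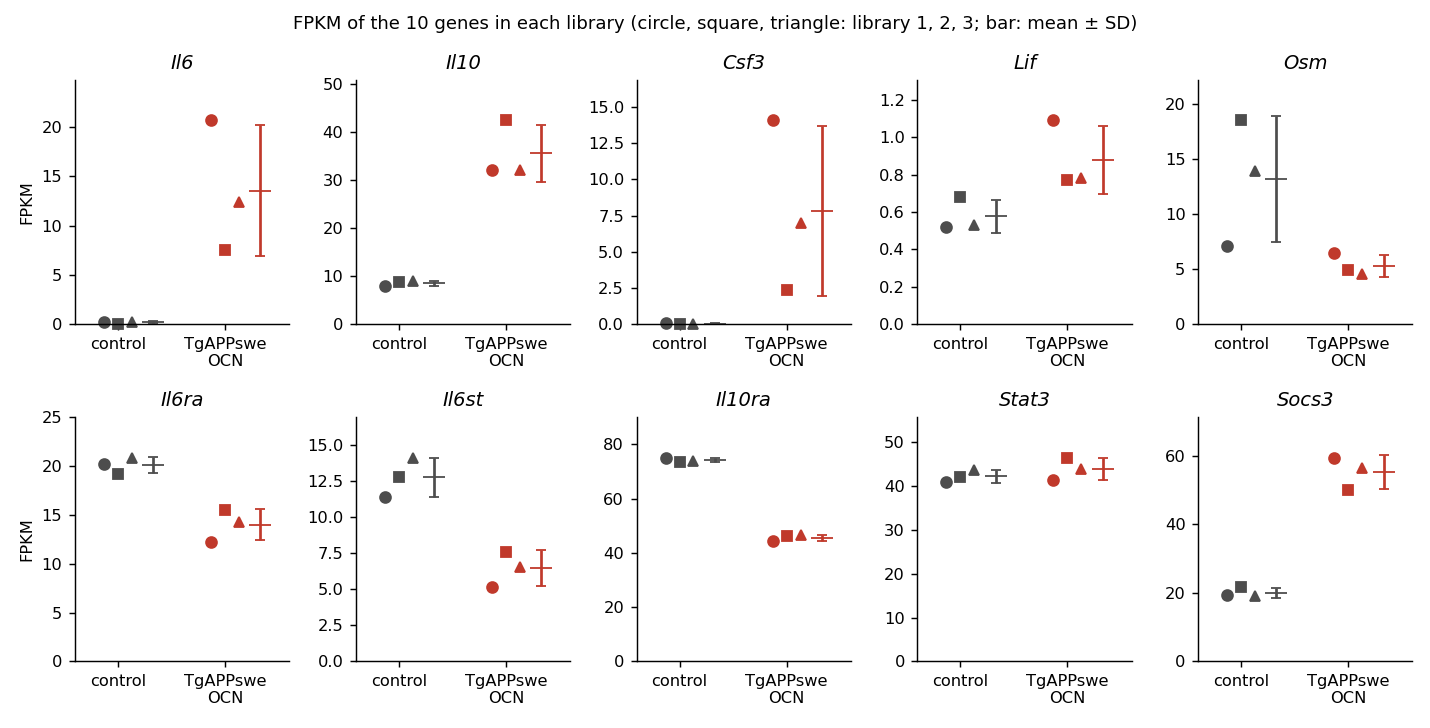
FPKM (vertical axes, linear and from 0, each panel with its own scale) of the 10 genes in the 3 control libraries (grey) and the 3 TgAPPsweOCN libraries (red), with circle, square and triangle for libraries 1, 2 and 3 and a bar for the mean ± SD. Il6 and Csf3 lay near 0 in every control library, Il10 and Socs3 formed separate groups, and Stat3 overlapped between genotypes.

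Among the ligands, Il6 (Entrez 16193, chr5:30013114-30019981, plus strand, mm10) was close to silent in control libraries, with 4, 1 and 5 counts in libraries 1, 2 and 3, or 0.20, 0.05 and 0.24 FPKM. The TgAPPsweOCN libraries held 488, 176 and 287 counts, or 20.68, 7.51 and 12.38 FPKM. Every TgAPPsweOCN library lay far above every control library, and control library 2 was under the 3 counts taken as detectable. On the log2 scale the edgeR estimate of the change was 6.58 ± 0.575 (SE), and it was 3.54 in limma on log2(FPKM + 1), which shrinks changes of low values. Il6 passed the filter on low counts only through the TgAPPsweOCN libraries, so no p-value is given. Summed over libraries and scaled by their totals, the 951 TgAPPsweOCN counts were 85.2 times the 10 control counts, with a 95% counting interval from 46.1 to 178 times. IL-6 is the cytokine for which the family is named, and it acts on cells that carry Il6ra or meet the shed receptor.

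Csf3 (Entrez 12985, chr11:98701263-98703629, plus strand) encodes G-CSF. Its control libraries held 2, 0 and 0 counts, all under the detectable level, while the TgAPPsweOCN libraries held 412, 71 and 199 counts, or 14.08, 2.38 and 7.0 FPKM. Libraries 1 and 2 of the TgAPPsweOCN group thus stood far apart although neither came near a control library. The 682 counts of the TgAPPsweOCN libraries were 305 times the 2 control counts after scaling, and the 95% counting interval ran from 84.2 to 2527 times. The fitted log2 fold change of 8.23 ± 1.07 (SE, edgeR estimate) depends on how values near 0 are treated and ran from 2.85 to 10.86 over the other settings tried. Like Il6, Csf3 passed the filter on low counts only through the TgAPPsweOCN libraries, so no p-value is given.

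Il10 (Entrez 16153, chr1:131019845-131024974, plus strand), unlike Il6 and Csf3, was well detected in control libraries, with 7.83, 8.65 and 8.90 FPKM from 190, 212 and 213 counts. In TgAPPsweOCN libraries it reached 31.95, 42.35 and 32.13 FPKM from 872, 1147 and 861 counts. The groups were widely separated, and library 2 was the highest of the TgAPPsweOCN group, where it was the lowest for Il6 and Csf3. Il10 rose by 2.28 ± 0.119 (SE; edgeR quasi-likelihood adjusted p = 1.01e-06) on the log2 scale, or 4.86-fold. IL-10 is an anti-inflammatory cytokine that signals through STAT3 in macrophages.

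Lif and Osm are neighbours on chromosome 11 and encode cytokines that share gp130. Lif (Entrez 16878, chr11:4257557-4272514, plus strand) was low throughout, with 44, 53 and 42 counts in control and 95, 67 and 67 counts in TgAPPsweOCN libraries. Its FPKM values of 0.52, 0.68 and 0.53 in control and 1.09, 0.77 and 0.78 in TgAPPsweOCN libraries did not overlap, but 0.68 and 0.77 lay close. For Lif the log2 fold change was 0.78 ± 0.213 (SE; edgeR quasi-likelihood adjusted p = 0.0114), under the fold change threshold, and 0.25 in limma on log2(FPKM + 1). LIF keeps progenitors undifferentiated and acts on bone-forming cells through Lifr and gp130.

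Osm (Entrez 18413, chr11:4236420-4241026, plus strand), the ligand that macrophages secrete onto osteoblasts, went the other way. Control libraries held 7.07, 18.50 and 13.93 FPKM from 255, 674 and 496 counts, and TgAPPsweOCN libraries 6.43, 4.87 and 4.59 FPKM from 261, 196 and 183 counts. Control library 1 was only slightly above the highest TgAPPsweOCN library by FPKM, and its 255 counts lay within the TgAPPsweOCN range. Its log2 fold change was -1.09 ± 0.312 (SE; edgeR quasi-likelihood adjusted p = 0.0138). This call rested on single libraries. Without control library 2 the log2 fold change was -0.77 (edgeR adjusted p = 0.0426), under the threshold, and without TgAPPsweOCN library 3 it was -0.99 (edgeR adjusted p = 0.0561).

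The make-up of the ligand RNA differed with these values. Summed over the 5 ligands, FPKM ranged from 15.7 to 27.9 in control and from 56.9 to 74.2 in TgAPPsweOCN libraries. Osm held 45.0% to 66.4% of this sum in control and 8.07% to 8.66% in TgAPPsweOCN libraries, a narrower range in that group than those of Il6, Il10 and Csf3. Il10 held 31.0% to 49.9% in control and 43.0% to 73.2% in TgAPPsweOCN libraries, so its share overlapped between genotypes although its level did not. Il6 held at most 1.27% in control and 12.98% to 27.9% in TgAPPsweOCN libraries, Csf3 at most 0.51% and then 4.11% to 19.0%, and Lif at most 3.31% in any library.

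The 3 receptor genes were all lower in TgAPPsweOCN libraries. Il10ra (Entrez 16154, chr9:45253837-45269149, minus strand), the ligand-binding chain for IL-10, gave 75.03, 73.54 and 73.87 FPKM in control and 44.33, 46.12 and 46.40 in TgAPPsweOCN libraries. Its libraries were almost level within each genotype, and the groups were well separated. For Il10ra this gave a log2 fold change of -0.49 ± 0.0488 (SE; edgeR quasi-likelihood adjusted p = 4.07e-05), which is 1.40-fold lower. Scaled by library total alone, it was -0.70.

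Il6st (Entrez 16195, chr13:112464070-112510086, plus strand), which encodes gp130, gave 11.38, 12.78 and 14.08 FPKM in control and 5.13, 7.60 and 6.56 in TgAPPsweOCN libraries. The groups did not overlap. The log2 fold change was -0.77 ± 0.128 (SE; edgeR quasi-likelihood adjusted p = 0.000789), the largest of the 3 receptor genes in size, and -0.99 when scaled by library total alone.

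Il6ra (Entrez 16194, chr3:89864059-89913196, minus strand) encodes the chain that binds IL-6. It gave 20.23, 19.23 and 20.84 FPKM in control and 12.26, 15.49 and 14.28 in TgAPPsweOCN libraries, without overlap. Il6ra had a log2 fold change of -0.31 ± 0.0792 (SE; edgeR quasi-likelihood adjusted p = 0.00867), and of -0.52 when scaled by library total alone. All 3 receptor genes were lower at an adjusted p of 0.05, where 31.5% of all genes were, and none reached the fold change threshold. Summed over these 3 genes, FPKM was 106 to 109 in control and 61.7 to 69.2 in TgAPPsweOCN libraries.

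Downstream of the receptors, Stat3 (Entrez 20848, chr11:100885098-100939540, minus strand) gave 40.79, 42.06 and 43.69 FPKM in control and 41.27, 46.40 and 43.79 in TgAPPsweOCN libraries. The ranges overlapped. The log2 fold change was 0.27 ± 0.0553 (SE; edgeR quasi-likelihood adjusted p = 0.00252) with TMM normalization, but 0.06 (edgeR adjusted p = 0.421) when scaled by library total alone, so whether Stat3 RNA differed depends on the scaling. Stat3 shares 72 bases with Stat5a on the opposite strand, and the sources used here do not say whether counting used strand.

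Socs3 (Entrez 12702, chr11:117966079-117970047, minus strand), the feedback inhibitor whose STAT motif is shown above, gave 19.27, 21.74 and 19.04 FPKM in control and 59.37, 49.88 and 56.47 in TgAPPsweOCN libraries. Counts were 1008, 1148 and 983 against 3491, 2912 and 3263. The groups were widely separated. Socs3 rose by 1.68 ± 0.0917 (SE; edgeR quasi-likelihood adjusted p = 1.31e-06) on the log2 scale, or 3.21-fold.

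**Figure D2:**
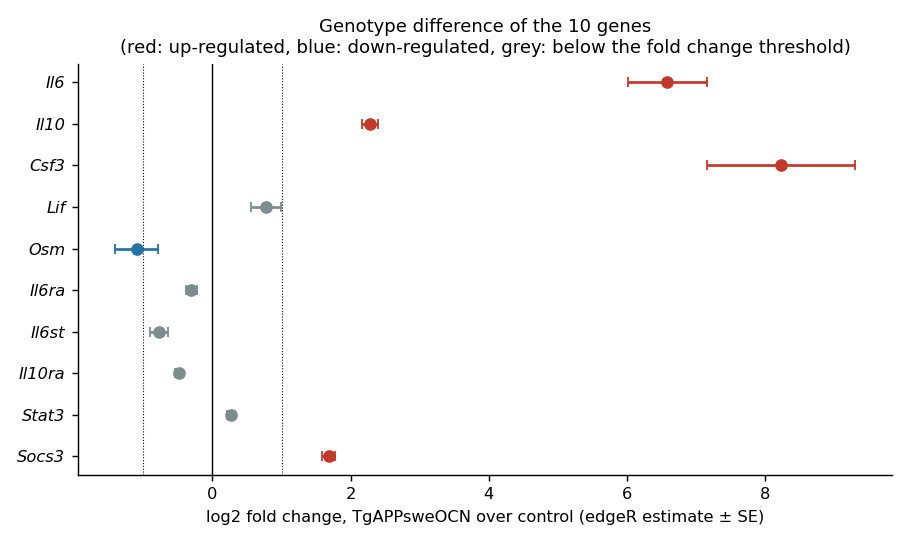
Log2 fold change of TgAPPsweOCN over control (horizontal axis) for the 10 genes, as edgeR estimates with SE bars from 3 libraries per genotype, red for up-regulated, blue for down-regulated and grey for genes under the threshold of 1 in size (dotted lines). Csf3 (8.23) and Il6 (6.58) stand far to the right, and the 3 receptor genes lie between -0.77 and -0.31.

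Ordered by FPKM, the control libraries ran from Il10ra (74.1 on average) through Stat3 (42.2), Il6ra (20.1), Socs3 (20.02), Osm (13.2), Il6st (12.7), Il10 (8.46) and Lif (0.577) to Il6 (0.163) and Csf3 (0.0267). Some neighbours could not be ordered, since the ranges of Il6ra and Socs3, of Osm and Il6st, and of Il6 and Csf3 overlapped. In TgAPPsweOCN libraries Socs3 (55.2) was first, above all other ranges. Il10ra (45.6), Stat3 (43.8) and Il10 (35.5) followed, with each overlapping its neighbour in this order. Below them Il6ra (14.0), Il6 (13.5), Csf3 (7.82), Il6st (6.43) and Osm (5.30) again overlapped from one to the next, and Lif (0.880) was last. Il10 thus stood below both gp130 and the IL-6 receptor in FPKM in control libraries and above both in TgAPPsweOCN libraries.

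The spread among libraries also differed from gene to gene. In TgAPPsweOCN libraries the SD of log2 CPM was 1.28 for Csf3 and 0.75 for Il6, where genes of like level had a median SD of 0.13 and 0.11. In control libraries the SD of Osm was 0.71, against a median of 0.09. Il10ra was at the other end, with an SD of 0.02 in each genotype. Within the TgAPPsweOCN group Il6, Csf3, Lif and Socs3 all had the order library 1, then 3, then 2, while Il6ra, Il6st and Stat3 had the order 2, then 3, then 1. These are the commonest orders in this group, held by 27.6% and 25% of all tested genes, so the shared order says little about these genes.

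**Figure D3:**
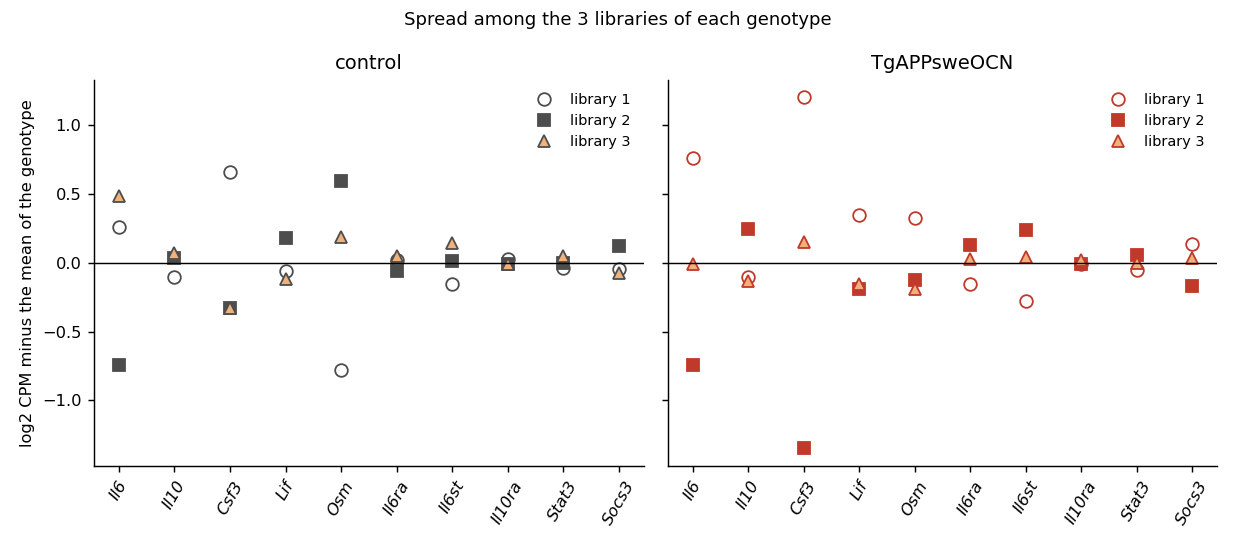
Deviation of each library's log2 CPM (vertical axis) from the mean of its genotype for the 10 genes, in control (left) and TgAPPsweOCN (right) libraries, with circle, square and triangle for libraries 1, 2 and 3. Csf3 and Il6 spread most in the TgAPPsweOCN group (SD 1.28 and 0.75), Osm spread widely in control (SD 0.71), and Il10ra hardly spread at all.

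Across all 6 libraries, the level of Il6 was followed most closely by genes outside the pathway lists, measured by Pearson's r of log2 CPM and given as a description. They were Rab38, a small GTPase of melanosome transport (r = 0.999), Zfp991, Cd209g, Aifm1 and Hspa4. These genes differed greatly in the size of their change, with a log2 fold change of 8.21 ± 0.582 for Cd209g and 2.57 ± 0.249 for Rab38, but 0.18 ± 0.0593 for Aifm1 (SE; edgeR quasi-likelihood test), which turned to -0.037 when scaled by library total alone. Counts of Zfp991 and Cd209g held fractions, which the estimate gives where reads are shared with similar sequences, so their values are uncertain. The same holds for Lifr, Csf3r, Csf2rb, Jak1, Jak2 and Jak3, described below, and for the marker Lyz2. In all, 235 tested genes had an r over 0.99, and the difference between genotypes dominates this measure. Of the other 9 genes Csf3 (r = 0.987), Socs3 (0.980) and Il10 (0.961) were nearest to Il6.

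Other genes of the pathway were read from lists written from general knowledge. They held 88 genes, of which 84 were in the table and 74 were tested. Of these 17 were up-regulated and 6 down-regulated (23.0% and 8.11%, beside 8.90% and 9.20% of all tested genes), and 47 passed the adjusted p alone (63.5%, beside 64.0%), so by p alone these lists did not stand apart from the background. Among the other ligands, 2 of the 6 tested were up-regulated and 0 down-regulated. Ebi3 and Il27 encode the subunits of IL-27, which also signals through gp130. Ebi3 lay at 70.46, 59.62 and 60.92 FPKM in control and 365.27, 312.71 and 333.62 in TgAPPsweOCN libraries, a log2 fold change of 2.61 ± 0.0953 (SE; edgeR adjusted p = 1.82e-07). Il27 was much lower, with 2.15 ± 0.568 and 4.31 ± 0.742 FPKM (SD, n = 3), and a log2 fold change of 1.23 ± 0.221 (SE; edgeR adjusted p = 0.00123). In limma on log2(FPKM + 1) it was 0.76 for Il27, and on log2(FPKM + 0.1) 0.99, both under the threshold.

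Of the 13 other receptor genes tested, 1 was up-regulated and 2 were down-regulated (7.69% and 15.4%, beside 8.90% and 9.20% of all tested genes). Il23r, a chain of the IL-23 receptor, had 2, 2 and 1 counts in control libraries, all under the detectable level, and 35, 38 and 43 in TgAPPsweOCN libraries. Scaled by library totals, its 116 TgAPPsweOCN counts were 20.8 times the 5 control counts, with a 95% counting interval from 8.65 to 65.2 times. Il23r passed the filter only through the TgAPPsweOCN libraries, and it was no longer called in limma on log2(FPKM + 1), where its log2 fold change was 0.75. Csf1r, the M-CSF receptor of macrophages, fell by 1.49 ± 0.0804 on the log2 scale, and Csf2rb, the common chain of the GM-CSF, IL-3 and IL-5 receptors, fell by 1.16 ± 0.0738 (SE; edgeR adjusted p = 1.21e-06 and 2.96e-06). The chains that partner the receptors above did not reach the fold change threshold. Il10rb, the second chain of the IL-10 receptor, had 214 ± 2.50 FPKM in control and 110 ± 3.82 in TgAPPsweOCN libraries, and Lifr had 6.01 ± 0.370 and 2.997 ± 0.163 (SD, n = 3). Their log2 fold changes were -0.74 ± 0.0527 and -0.68 ± 0.0858 (SE; edgeR adjusted p = 5.51e-06 and 0.000163). Osmr had overlapping ranges, with a log2 fold change of 0.35 ± 0.235 (SE; edgeR adjusted p = 0.218), as did Csf3r, the receptor for G-CSF, with 0.27 ± 0.104 (SE; edgeR adjusted p = 0.0469) and 46.8 ± 6.36 against 48.4 ± 3.48 FPKM (SD, n = 3). Scaled by library total alone, Osmr and Csf3r were at 0.14 and 0.06 (edgeR adjusted p = 0.623 and 0.633).

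Of the 10 other JAK and STAT genes, 3 were up-regulated and 0 down-regulated, beside 8.90% and 9.20% of all tested genes. Among them Stat2, a STAT of interferon signaling, rose by 1.70 ± 0.121 on the log2 scale, and Jak2, a kinase bound to gp130 and the G-CSF receptor, by 1.42 ± 0.133 (SE; edgeR adjusted p = 5.69e-06 and 2.73e-05). Stat2 thus lay at 28.61, 21.74 and 24.00 FPKM in control and 59.24, 78.63 and 69.99 in TgAPPsweOCN libraries, below Stat3 in every control library and above it in every TgAPPsweOCN library. The log2 fold changes of the other JAKs were 0.11 ± 0.0532 for Jak1, -0.12 ± 0.0704 for Jak3 and 0.25 ± 0.0680 for Tyk2 (SE; edgeR adjusted p = 0.0897, 0.163 and 0.0121), and that of Jak1 changed sign to -0.10 when scaled by library total alone, where those of Jak3 and Tyk2 were -0.34 and 0.03 (edgeR adjusted p = 0.00397 and 0.692). Among 16 inhibitors 1 was up-regulated (6.25%, beside 8.90% of all tested genes) and 0 down-regulated (beside 9.20%). It was Socs1, which restrains JAK signaling from interferon receptors, at 2.37, 2.06 and 2.22 FPKM in control and 13.92, 13.59 and 13.96 in TgAPPsweOCN libraries (log2 fold change 2.85 ± 0.108, SE; edgeR adjusted p = 2.05e-07). Its change was larger than that of Socs3, but its FPKM stayed lower than that of Socs3 in every library of the same genotype.

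Of 29 genes known as STAT3 targets in some cell type, all tested, 10 were up-regulated and 4 down-regulated (34.5% and 13.8%, beside 8.90% and 9.20% of all tested genes), and the median log2 fold change was 0.16 beside -0.02 over all tested genes. Scaled by library total alone, these medians were -0.06 and -0.23. Many genes of this list also respond to NF-kB or interferons, and S100a8 and S100a9 are neutrophil markers as well. The largest rises were in Lcn2, an iron-binding acute-phase protein, Fgl2, a fibrinogen-like immune regulator, and Saa3, an acute-phase serum amyloid. Lcn2 lay at 8.41, 3.61 and 4.81 FPKM in control and 789.50, 304.07 and 519.26 in TgAPPsweOCN libraries, a log2 fold change of 6.80 ± 0.454. Saa3 rose by 5.79 ± 0.427 and Fgl2 by 5.85 ± 0.131 on the log2 scale (SE; edgeR adjusted p = 6.87e-06 and 2.00e-08). Lcn2 and Saa3 shared with Il6 and Csf3 the order library 1, then 3, then 2 in the TgAPPsweOCN group, and Fgl2 did not. This order was held by 27.6% of all tested genes. The largest falls were in Fos, a subunit of AP-1, Gadd45g, a stress-induced growth inhibitor, and Vegfa, the angiogenic growth factor, which fell by 1.6 ± 0.145, 1.51 ± 0.146 and 1.43 ± 0.156 on the log2 scale (SE; edgeR adjusted p = 2.18e-05, 3.33e-05 and 6.67e-05).

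**Figure D4:**
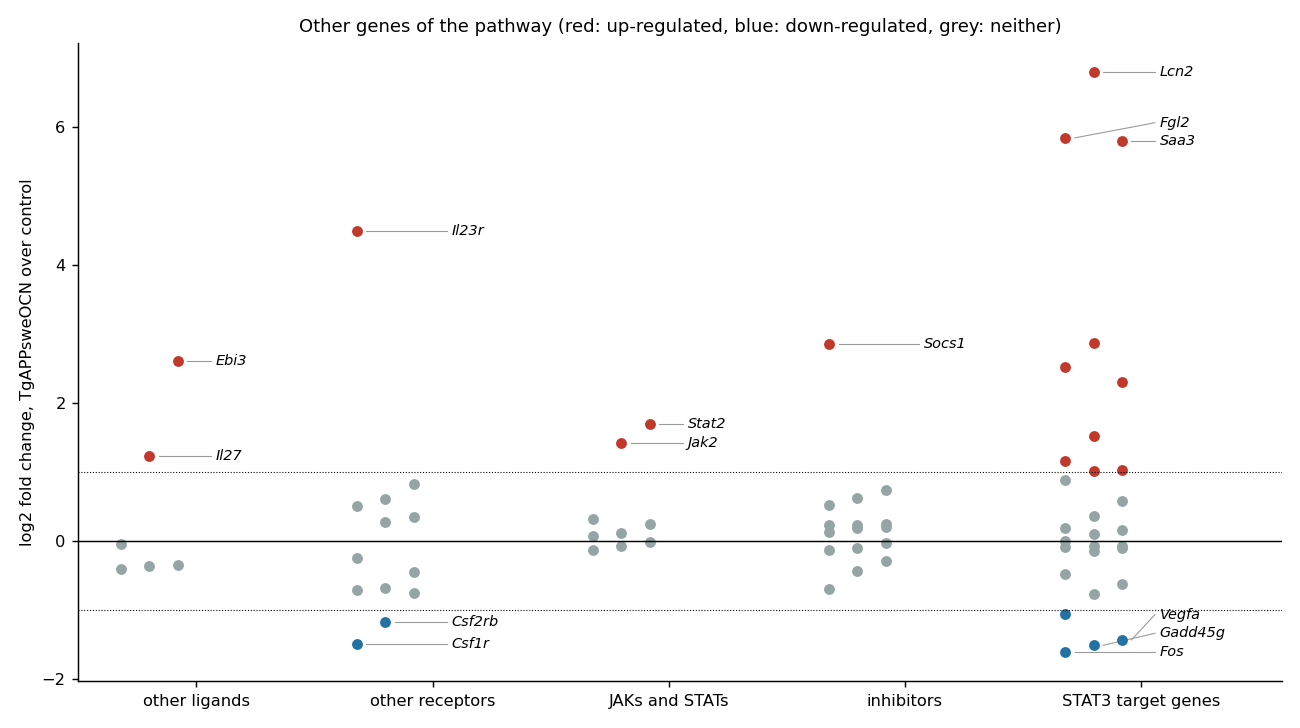
Log2 fold change of TgAPPsweOCN over control (vertical axis) for tested genes of 5 pathway lists (horizontal axis; 1 gene not reported here is left out), each point a gene from the edgeR fit with 3 libraries per genotype, red for up-regulated, blue for down-regulated and grey for neither, dotted lines at 1 in either direction. Most points lie between the dotted lines, with Lcn2, Fgl2, Saa3 and Il23r highest and Fos and Gadd45g lowest.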

How the data were processed

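Libraries were sequenced for the authors on a DNBSEQ instrument. The submitters' processing notes name HISAT2 2.0.4, Bowtie2 2.2.5, RSEM 1.2.12, DESeq2 1.4.5 and the build mm10, and the annotation is not given in the sources used here. The authors deposited estimated counts per gene, with fractions in 13.3% to 14.4% of the genes of a library, and FPKM values with 2 decimals. Their further table of log2 ratios and p-values was not used. Counts were rounded, although the design had assumed raw counts, and compared by the quasi-likelihood test of edgeR 4.0.16 in R 4.3.3, after filterByExpr and TMM, all 6 libraries and genotype as the only term. Likeness to Il6 used log2 CPM with a prior count of 2. Genes of like level lay within 0.5 of a gene in mean log2 CPM. Gene spans came from GENCODE vM21 (GRCm38, the same assembly as mm10) and promoters from RefSeq. The search of receptor proteins in the design was not run. Alternatives were DESeq2 1.42.0, RLE factors, library totals alone, no filter beyond 1 count, at least 10 counts in every library, a replicate block, limma 3.58.1 on log2(FPKM + 1) or log2(FPKM + 0.1), no fold change threshold, and leaving out each library. Python 3.11.15 with numpy 2.4.6, pandas 2.3.3, scipy 1.17.1 and matplotlib 3.10.9 prepared tables and plots. The procedure was tested on simulated data.

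The 10 genes and all lists were chosen with earlier results of these data known. The genes named are these 10, up to 3 called genes per direction and list with the largest change, the partner receptors Lifr, Osmr, Il10rb and Csf3r, every JAK, the 5 genes most like Il6, and 7 markers, and a gene under this rule is not reported here. Other marker genes named were chosen after their values were seen. No batch is named in the labels.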

Additional observations from a re-analysis of the deposited data

How the results depend on the processing

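Over the alternatives, none of the 10 genes changed direction, and only the call of Osm was lost, without control library 2 or TgAPPsweOCN library 3. Requiring at least 10 counts in every library removed Il6 and Csf3 from the test, which left 2 of the 10 genes up-regulated. Without a fold change threshold 4 of the 10 were down-regulated, the other pathway genes gave 29 up and 18 down, and all genes 4122 up and 4006 down. With limma on log2(FPKM + 1), 593 genes were up-regulated, and with limma on log2(FPKM + 0.1) 811 were up- and 1510 down-regulated. Leaving out each library gave 4 up and 0 to 1 down of the 10 genes, 16 to 19 up and 5 to 6 down of the other pathway genes, and 1101 to 1149 up and 1123 to 1258 down of all genes. Jak1 turned to -0.10 with library totals alone and in both limma fits, and Aifm1 turned to -0.037, -0.034 and -0.037 with library totals, limma on log2(FPKM + 1) and limma on log2(FPKM + 0.1). The causes were not tested.

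The replicate block gave 4 up and 1 down of the 10 genes, 17 up and 6 down of the other pathway genes, and 1115 up and 1147 down of all genes. Deviations of libraries with the same number correlated at 0.013, 0.007 and 0.140, the last being the largest of all pairs between genotypes. The labels do not say whether libraries with the same number belong together, and these correlations cannot settle it.

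Depth limits Il6, Csf3 and Il23r in control libraries, where Il6 and Csf3 ratios rest on 10 and 2 counts.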

Other observations

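Among the listed ligands with too few counts for the test, chosen here after their values were seen, Csf2 (GM-CSF) had 0 counts in each control library and 22, 6 and 21 counts in TgAPPsweOCN libraries 1, 2 and 3. Il12a, a subunit of IL-12 and IL-35, had 0, 2 and 0 counts in control and 17, 3 and 11 in TgAPPsweOCN libraries. Both were lowest in TgAPPsweOCN library 2, as were Il6 and Csf3. The orders with library 2 lowest, 1, 3, 2 and 3, 1, 2, were held by 27.6% and 10.4% of all tested genes, so this likeness says little. Il11, another ligand of gp130, had 3, 3 and 5 counts against 5, 1 and 1. Ctf1, which encodes cardiotrophin-1, had 4, 4 and 5 against 1, 5 and 4. None of these genes passed the filter on low counts. Fits with no filter beyond 1 count covered them, but Csf2 and Il12a enter such a fit only through the libraries where they are high, so no test is given.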
